A study of Mus musculus with 18 samples.

Results

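Hair follicle regulators and stem cell markers were described in mouse back skin, 10 genes in all: the bulge and outer root sheath markers Cd34, Lgr5, Sox9 and Lhx2, the signalling genes Shh and Lef1, and the matrix and shaft transcription factors Msx2, Foxn1, Hoxc13 and Dlx3. Members were all probe sets whose gene symbol in the platform annotation is exactly one of these names. All 10 genes are on the array, of 18193 genes with a symbol of their own, and they have 18 of the 45037 probe sets tested. Only 4 of the 18 probe sets varied by at least 0.01 log2 over the 18 arrays, 1 each for Cd34, Lgr5, Sox9 and Hoxc13. The other 14 held the same value on every array and carry no information, so nothing can be said here of Lhx2, Shh, Lef1, Msx2, Foxn1 or Dlx3.

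RNA was taken from back skin of male mice of the albino hairless strain HR-1, given as 6 weeks old, in 3 groups of 6 arrays labelled as biological replicates. WB skin was tape-stripped in mice that were also given an extract of winged bean orally for 5 weeks, with 5 doses a week of 200 mg/kg/day in 0.3% carboxymethylcellulose. TS skin was tape-stripped only, on the left side of the back, 3 times a week for 4 weeks, each session until transepidermal water loss reached 70 to 100 g/m2/h. NT skin was not stripped. The labels do not say whether TS or NT mice took the vehicle, or whether NT skin came from separate mice. Tape stripping pulls off the outer cornified layers and so breaks the skin barrier. Each array took labelled RNA of whole skin, so fewer cells of a type and less RNA per cell cannot be told apart. As a model of the follicle the strain is limited: mice without hairless (Hr) function lose their coat at the first regression of the follicle, the labels do not name the mutation of HR-1, and both probe sets of Hr are constant.

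The hair follicle is an appendage of the epidermis that grows, regresses and rests in cycles. Stem cells of the bulge, a niche in the outer root sheath, seed a new lower follicle at each growth phase. Wnt and sonic hedgehog signals drive that growth, bone morphogenetic protein (BMP) signals hold the stem cells at rest, and transcription factors of the matrix turn on the keratins of the inner root sheath and the shaft. Values below are on the deposited log2 scale, ± gives the SD over 6 arrays, and SE is given by name. A probe set was called higher or lower at a limma adjusted p under 0.05, over all 45037 probe sets, and a difference of at least 0.01. Levels of different probe sets are not set against each other, because each probe set has its own response.

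Cd34, a sialomucin on the surface of mouse bulge stem cells that is also found on endothelium, dermal fibroblasts and fat progenitors, was the member with the widest range, 4.18 log2 over the 18 arrays. Its values had a lowest, median and highest of 7.96, 8.43 and 8.94 in WB skin, 10.11, 10.16 and 10.63 in TS skin, and 11.43, 11.78 and 12.14 in NT skin. No 2 of the 3 groups overlapped, and the order from low to high was WB, TS, NT. The means were 8.46 ± 0.32 in WB, 10.26 ± 0.20 in TS and 11.74 ± 0.27 in NT skin. Cd34 fell by 1.48 log2 in TS against NT skin (SE 0.15, limma adjusted p = 1.6e-05), which is 2.80-fold lower. It fell by a further 1.79 in WB against TS skin (SE 0.15, adjusted p = 6.3e-08), or 3.46-fold. Against NT skin, the level in WB skin was 9.68-fold lower, a difference of -3.27 (adjusted p = 3.3e-11). Each of these differences was larger than the SD within any of the 3 groups.

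Lgr5, an R-spondin receptor that strengthens Wnt signalling and marks stem cells of the lower bulge and hair germ, has 2 probe sets on the array. One held 6.50 on every array. The other had a lowest, median and highest of 7.14, 7.43 and 7.85 in WB skin, 7.82, 7.93 and 8.02 in TS skin, and 7.94, 8.12 and 8.35 in NT skin. The TS and NT arrays overlapped, the WB and NT arrays did not, and of the WB arrays WB 3, at 7.85, was the one that lay within the TS range. Lgr5 averaged 7.47 ± 0.25 in WB, 7.93 ± 0.08 in TS and 8.14 ± 0.19 in NT skin. The difference of TS from NT skin was -0.21 (SE 0.11, 95% interval -0.44 to 0.02, adjusted p = 0.248) and did not pass the test. Lgr5 fell by 0.46 in WB against TS skin (SE 0.11, adjusted p = 0.00196), or 1.38-fold, and by 0.68 in WB against NT skin (adjusted p = 6.2e-05).

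Sox9, a transcription factor that bulge and outer root sheath cells need to keep their identity, has 3 probe sets. The constant ones held 8.14 and 7.38. The third had a lowest, median and highest of 8.82, 8.88 and 8.96 in WB skin, 8.43, 8.52 and 8.66 in TS skin, and 8.55, 8.59 and 8.76 in NT skin. All 6 WB arrays lay above every TS and NT array, while TS and NT arrays overlapped. The means were 8.89 ± 0.05 in WB, 8.53 ± 0.09 in TS and 8.61 ± 0.08 in NT skin. Sox9 was the only one of the 4 varying members that was higher in WB skin, by 0.36 against TS skin (SE 0.04, adjusted p = 2.3e-06), or 1.28-fold, and by 0.27 against NT skin (adjusted p = 4.2e-05). The difference of TS from NT skin was -0.08 (SE 0.04, 95% interval -0.17 to 0.01, adjusted p = 0.240).

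Hoxc13, a homeobox factor that binds hair keratin genes, has a single probe set, whose whole range over the 18 arrays was 0.16 log2. It had a lowest, median and highest of 7.31, 7.34 and 7.37 in WB skin, 7.36, 7.40 and 7.42 in TS skin, and 7.39, 7.44 and 7.46 in NT skin. Neighbouring groups in that order overlapped, and WB and NT arrays did not. Hoxc13 averaged 7.34 ± 0.02 in WB, 7.39 ± 0.02 in TS and 7.43 ± 0.03 in NT skin. The difference of TS from NT skin was -0.04 (SE 0.01, 95% interval -0.07 to -0.01, adjusted p = 0.101) and did not pass. Hoxc13 fell by 0.05 in WB against TS skin (SE 0.01, adjusted p = 0.00549) and by 0.09 in WB against NT skin (adjusted p = 5.7e-05), differences of 1.04-fold and 1.06-fold. The sign of both differences turned under quantile normalization, to 0.03 against TS and 0.01 against NT skin.

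**Figure D1:**
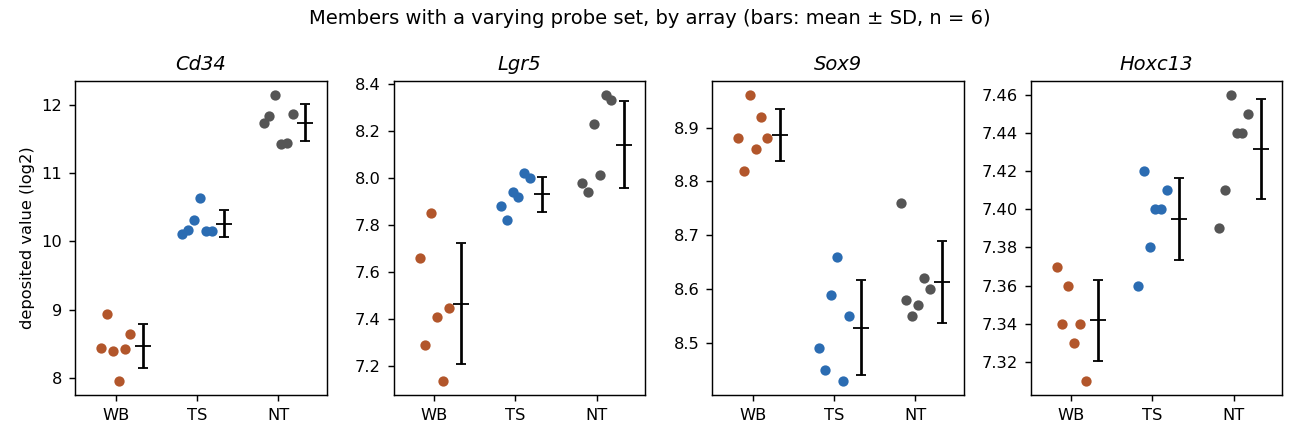
Deposited log2 value of the 4 varying probe sets, 1 panel per gene and 1 point per array, with WB, TS and NT skin from left to right and bars giving mean ± SD (n = 6). The axes start at different values: Cd34 spans 4.18 log2 with 3 separate groups, Sox9 lies highest in WB skin, and the whole Hoxc13 panel spans 0.16 log2.

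The 14 constant probe sets differed between arrays by at most 3.4e-08 and sat at values of 6.40 to 8.14. Lhx2, a LIM homeobox factor of the bulge and hair germ, held 7.17 on its single probe set. Shh, the secreted signal that drives the follicle downward in growth, held 6.40 and 6.69, and Lef1, the DNA-binding partner of beta-catenin in the matrix and precortex, held 6.44 and 7.30. Among the transcription factors of matrix and shaft, Msx2, a homeobox target of BMP signalling, held 6.52 and 7.07. Foxn1, the gene lost in nude mice, held 6.52 and 6.85, and Dlx3, a homeobox factor of shaft and inner root sheath that acts before Hoxc13, held 6.96 and 7.55. Such values are common in this table: 33091 of the 45037 tested probe sets (73.5%) were constant, with a median of 6.70 against 8.61 for the varying ones. The sources used here do not say how the constant values arose, and they say neither that a gene was silent nor that it did not differ between groups.

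**Figure D2:**
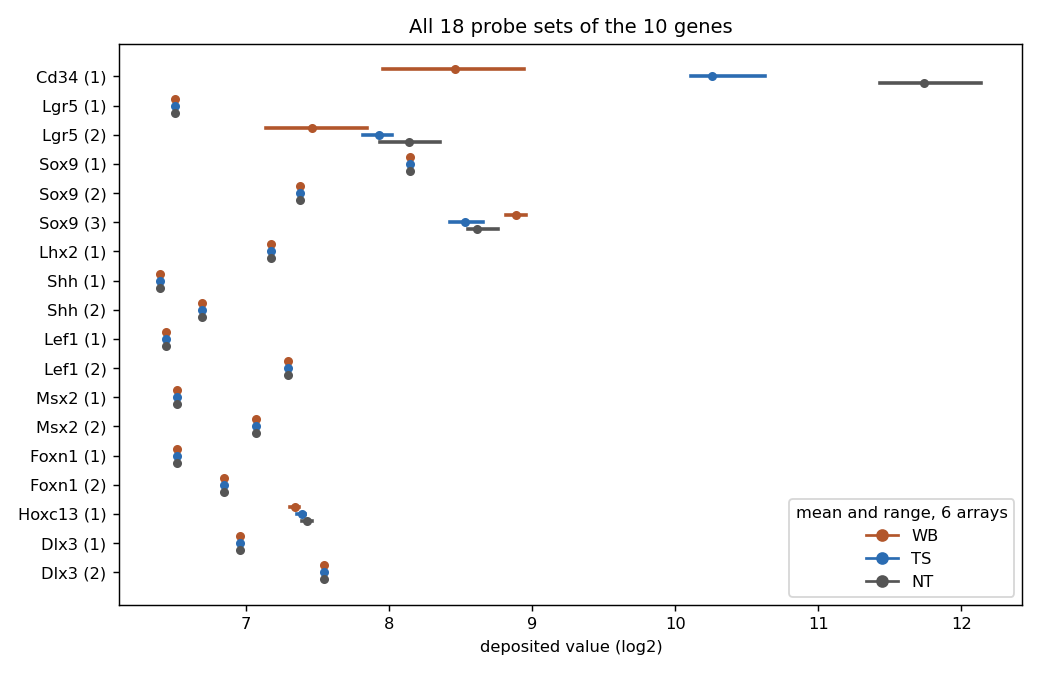
All 18 probe sets of the 10 genes in rows, with the deposited log2 value on the x axis, points at the mean and lines over the range of 6 arrays, for WB, TS and NT skin from top to bottom. In 14 rows the 3 points stand at 1 value with no visible line, and the widest spread is that of Cd34.

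Set against all probe sets, the members did not stand out by number. In TS against NT skin, 1 of 18 member probe sets was called (Cd34, lower), where 10.1% of all probe sets and 38.1% of the varying ones were called, 4.97% of all probe sets being higher and 5.14% lower, or 18.7% and 19.4% of the varying ones. In WB against TS skin, 4 of 18 were called, 1 higher and 3 lower, where 23.6% of all and 88.8% of the varying probe sets were called, 12.5% of all being higher and 11.1% lower. Of the varying probe sets alone, 47.1% were higher and 41.7% lower. In WB against NT skin the count was again 4 of 18, with 1 higher and 3 lower, beside 23.7% of all and 89.3% of the varying probe sets. Of all probe sets 12.1% were higher and 11.6% lower there, and of the varying ones 45.7% and 43.6%. Groups that did not overlap were seen for 1 of the 4 varying members in TS against NT, 2 in WB against TS and 4 in WB against NT skin, beside 24.9%, 77.6% and 81.7% of the varying probe sets. The 4551 calls over all probe sets in TS against NT skin split into 2238 higher and 2313 lower, and after quantile normalization 4682 were higher and 2122 lower. The 10612 calls in WB against TS skin split into 5631 higher and 4981 lower, and became 35075 and 4720 after quantile normalization and 39061 and 4932 after median centring. For WB against NT skin the split was 5462 higher and 5205 lower, and became 36480 and 4848 after quantile normalization and 38842 and 5151 after median centring. Both scalings shift the constant probe sets, and members among them are then called too.

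The WB arrays differed from the others in a measure of RNA quality. The 3' minus 5' difference of the beta-actin control probe sets, which grows when RNA is broken or labelling stops early, was 5.69 ± 0.25 in WB, 0.16 ± 0.07 in TS and -0.51 ± 0.10 in NT skin. For Gapdh it was 3.70 ± 0.36, -0.44 ± 0.11 and -0.59 ± 0.11 in the same groups. The actin differences between groups were 5.53 for WB against TS, 0.66 for TS against NT and 6.19 for WB against NT skin (two-sided exact permutation p = 0.00216 each, the smallest that 6 against 6 arrays allow, adjusted p = 0.00278 over 9 tests). The correlation of arrays over probe sets was 0.981 to 0.996 within WB skin, 0.846 to 0.886 between WB and TS arrays and 0.945 to 0.98 between TS and NT arrays. Of 38 genes of the follicle lists with several varying probe sets, 14 had one probe set called higher and another called lower in WB against TS skin. In TS against NT skin 0 of 38 did. Such a pair needs more than 1 called probe set. Of the varying probe sets 88.8% were called in WB against TS but 38.1% in TS against NT skin, so fewer genes could show a pair there. Each varying member has 1 varying probe set, so no member could be checked in that way. The actin difference was 5.27 to 5.96 on WB, 0.08 to 0.26 on TS and -0.65 to -0.38 on NT arrays, with no overlap between groups. For Gapdh the TS and NT arrays overlapped. RNA quality and treatment thus cannot be told apart in the WB values of Cd34, Lgr5, Sox9 and Hoxc13. The part of RNA quality in the difference of TS from NT skin was not tested. The skin was checked by the basal keratins Krt14 and Krt5, both much lower in WB skin. Krt14 averaged 11.28 in WB, 14.16 in TS and 13.47 in NT skin, and Krt5 10.05, 13.25 and 12.56. Krt14 fell by 2.88 (adjusted p = 1.1e-09) and Krt5 by 3.20 (adjusted p = 6.9e-09) in WB against TS skin. The basal epidermis list did not move as a whole: of 12 varying genes 7 fell and 3 rose. Beside these counts, 39.7% of all varying genes were lower and 48.2% higher. Among those that rose was Trp63, by 1.27 to 1.40 with each array left out in turn.

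Markers of other tissue in the sample moved with Cd34 in part. The fibroblast list averaged between 10.34 and 10.63 on WB, 11.26 and 11.54 on TS and 11.91 and 12.08 on NT arrays, with no overlap between groups, the same order as Cd34. Of its 13 genes, all varying, 0 rose and 5 fell in TS against NT skin, among them Fn1, fibronectin, which fell by 1.86 (SE 0.14, adjusted p = 7.2e-07). The adipocyte list had the same order, at 8.50 to 8.93 in WB, 9.56 to 10.15 in TS and 10.86 to 11.57 in NT skin, and 0 of its 13 varying genes rose and 9 fell in TS against NT skin. Skeletal muscle genes, from the muscle under the skin, had this order too, at 7.31 to 8.54 in WB, 10.31 to 10.76 in TS and 12.05 to 13.43 in NT skin, with 0 of 16 higher and 13 lower in TS against NT skin and a median of -1.87. In WB against TS skin the fibroblast list had 3 genes higher and 7 lower, the adipocyte list 2 and 9, and the muscle list 0 and 11. Of all varying genes 48.2% were higher and 39.7% lower in WB against TS skin. The endothelial list without Cd34 did not follow it in TS against NT skin: 3 of its 6 varying genes rose and 0 fell. Its levels were 7.25 to 7.49 in WB, 8.31 to 8.50 in TS and 8.03 to 8.32 in NT skin. The mast cell list without Cd34, of which 9 genes varied, had 5 higher and 0 lower in TS against NT skin, at 7.72 to 7.96 in WB, 9.39 to 9.98 in TS and 8.68 to 9.52 in NT skin. For comparison, 19.1% of the 7443 varying genes were higher and 20.4% lower in TS against NT skin, taken by 1 probe set each. The basal epidermis list, whose genes outer root sheath cells express too, ran at 9.26 to 9.77 in WB, 10.09 to 10.59 in TS and 9.76 to 10.19 in NT skin. The part of these cell types in the level of Cd34 was not tested.

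**Figure D3:**
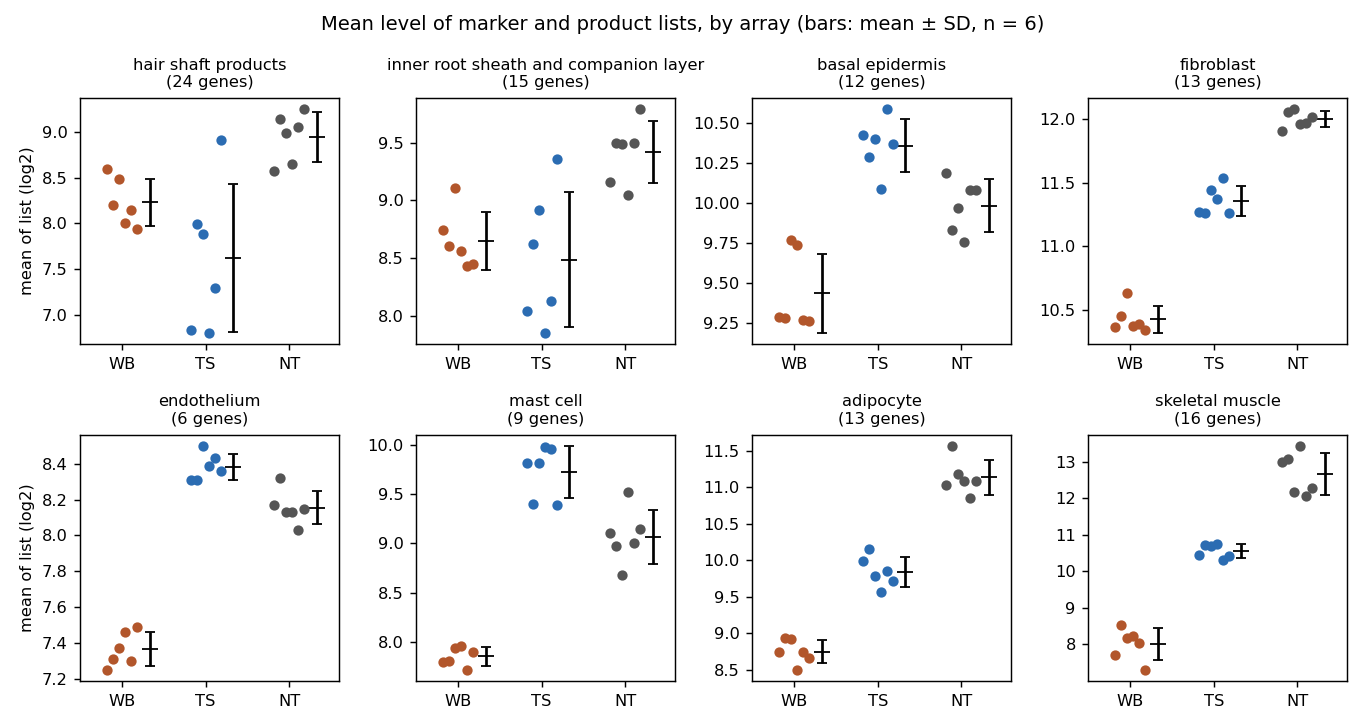
Mean log2 level of 8 gene lists by array, 1 point per array, with WB, TS and NT skin from left to right and bars giving mean ± SD (n = 6). The fibroblast and adipocyte lists are lowest in WB and highest in NT skin as Cd34 is, and so is the muscle list, the endothelial and mast cell lists are highest in TS skin, and the 2 lists of hair products are spread widest in TS skin.

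Other genes of the bulge and outer root sheath, 23 on the array and 18 varying, had no common direction with Cd34. In TS against NT skin 3 rose and 5 fell, with a median of -0.11, against a median of 0.0029 over all varying genes. Of all varying genes 19.1% were higher and 20.4% lower there. Krt15, the keratin used with Cd34 to mark the bulge, had a mean of 10.70 ± 0.38 in TS and 11.65 ± 0.31 in NT skin (-0.95, SE 0.20, adjusted p = 0.00314). Sfrp1, a secreted Wnt antagonist of the bulge, fell by 1.12 (SE 0.16, adjusted p = 0.0002), and Npnt, a basement membrane ligand of bulge cells, fell by 0.26 (SE 0.05). Gas1, a hedgehog co-receptor, rose by 0.62 (SE 0.10) and Itga6, the alpha 6 integrin of basal cells, by 0.75 (SE 0.12). In WB against TS skin 10 of the 18 rose and 6 fell, beside 48.2% and 39.7% of all varying genes, so these counts lie near the background. Several of the genes that rose, Itga6 among them, also had a probe set called lower, so their direction depends on the probe set used. The largest differences there were falls of the keratins Krt17 (-4.40), Krt5 (-3.20) and Krt15 (-2.80), the direction that Cd34 and Lgr5 took, while Gas1 rose by 0.91 as Sox9 rose.

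Around Lgr5, Lef1 and Shh, the Wnt list had 24 varying genes of 56 on the array, and 5 rose and 7 fell in TS against NT skin. Those with the smallest p were Fzd4, a Wnt receptor (-0.99, SE 0.08, adjusted p = 9.4e-07), the antagonist Sfrp4 (-1.70, SE 0.16) and the ligand Wnt4 (1.51, SE 0.19). Sfrp4 was 7.09 to 7.13 on the TS arrays and 8.12 to 9.31 on the NT arrays, so those groups did not overlap, whereas those of Lgr5 did. Only 4 of 18 hedgehog genes varied, and Gli1, the target used as a readout of Shh, was constant. Ptch1, the Shh receptor and a target of the pathway, was at -0.44 in TS against NT skin (SE 0.14, adjusted p = 0.045), a call lost when any of 8 of the 12 arrays was left out. Among BMP and TGF-beta genes, 3 of 20 varying genes rose and 5 fell in TS against NT skin, with Bmp4 down by 1.23 (SE 0.16). Of the Id genes, which BMP signals can induce, Id2 and Id3 fell by 0.73 and 0.80, while Id1 (-0.10, adjusted p = 1.0) and Id4 (0.16, adjusted p = 0.852) did not pass. In WB against TS skin the Wnt list had 14 higher and 6 lower and the BMP list 7 higher and 8 lower. The hedgehog list had 3 higher, among them Smo, the signal transducer of Shh, by 0.99, and 1 lower. Of all varying genes 48.2% were higher and 39.7% lower in WB against TS skin, and 19.1% and 20.4% in TS against NT skin.

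The matrix and shaft transcription factors other than the members, 16 on the array, had 8 varying genes, of which 2 rose and 2 fell in TS against NT skin. Ovol1, a zinc finger factor of epidermal and shaft differentiation, rose by 1.04 (SE 0.13, adjusted p = 6.6e-05) and Klf5 by 1.09 (SE 0.16), while Satb1 fell by 0.76 (SE 0.10) and Vdr, the vitamin D receptor that follicle cycling needs, by 0.34 (SE 0.07). Msx1, Gata3 and Hr were constant, as Msx2, Foxn1 and Dlx3 were. In WB against TS skin 5 rose and 3 fell, beside 48.2% and 39.7% of all varying genes. Foxq1 was higher by 1.06 and Ovol1 lower by 1.45. Dermal papilla genes, from the mesenchyme that instructs the matrix, had 9 varying genes, with 3 higher and 1 lower in TS against NT skin. Cntn1 rose by 1.71 (SE 0.17) and Crabp1 by 1.07 (SE 0.28), and the TS and NT arrays overlapped for Crabp1. In the list of FGF, Notch, EDA and other follicle signals 2 of 16 varying genes rose and 2 fell in TS against NT skin. Of all varying genes 19.1% were higher and 20.4% lower in that comparison.

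Most products of the inner root sheath and shaft, which Hoxc13, Foxn1 and Dlx3 are known to regulate, fell in TS against NT skin where Hoxc13 did not pass. Of 24 varying hair shaft genes 1 rose and 21 fell, with a median of -1.21, and of 15 varying inner root sheath and companion layer genes 2 rose and 11 fell, with a median of -0.86. Beside these counts, 19.1% of all varying genes were higher and 20.4% lower. Krt27, an inner root sheath keratin, fell by 2.84 (SE 0.57, adjusted p = 0.00244), and S100a3, a calcium-binding protein of the hair cuticle, by 2.23 (SE 0.39, adjusted p = 0.000888). The TS arrays differed widely: the mean of the hair shaft list was 6.80 to 8.91, against 8.57 to 9.25 in NT skin, and TS 6, at 8.91, lay inside the NT range. Cd34 ran from 10.11 to 10.63 over the TS arrays. TS 4 and TS 1, lowest in hair shaft products at 6.80 and 6.83, had Cd34 values of 10.63 and 10.11. TS 2, TS 5 and TS 6 lay close to TS 1, at 10.17, 10.15 and 10.15, and TS 3 was at 10.32. Whether Cd34 followed the hair shaft products within TS skin was not tested. With each array left out in turn, 19 to 22 hair shaft genes and 9 to 11 inner root sheath genes were lower. In WB against TS skin 8 hair shaft genes rose and 3 fell, beside 48.2% and 39.7% of all varying genes. In WB against NT skin 0 rose and 11 fell, where 46.8% of all varying genes were higher and 41.7% lower. Krt27 averaged 11.00 ± 0.49 in WB, 8.20 ± 1.51 in TS and 11.04 ± 0.62 in NT skin, lowest in TS skin. The mean of Sox9 was lowest in TS skin too, though its difference of TS from NT skin did not pass. S100a3 averaged 5.61 ± 0.11, 7.79 ± 1.08 and 10.02 ± 0.43 in WB, TS and NT skin, the order of Cd34.

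**Figure D4:**
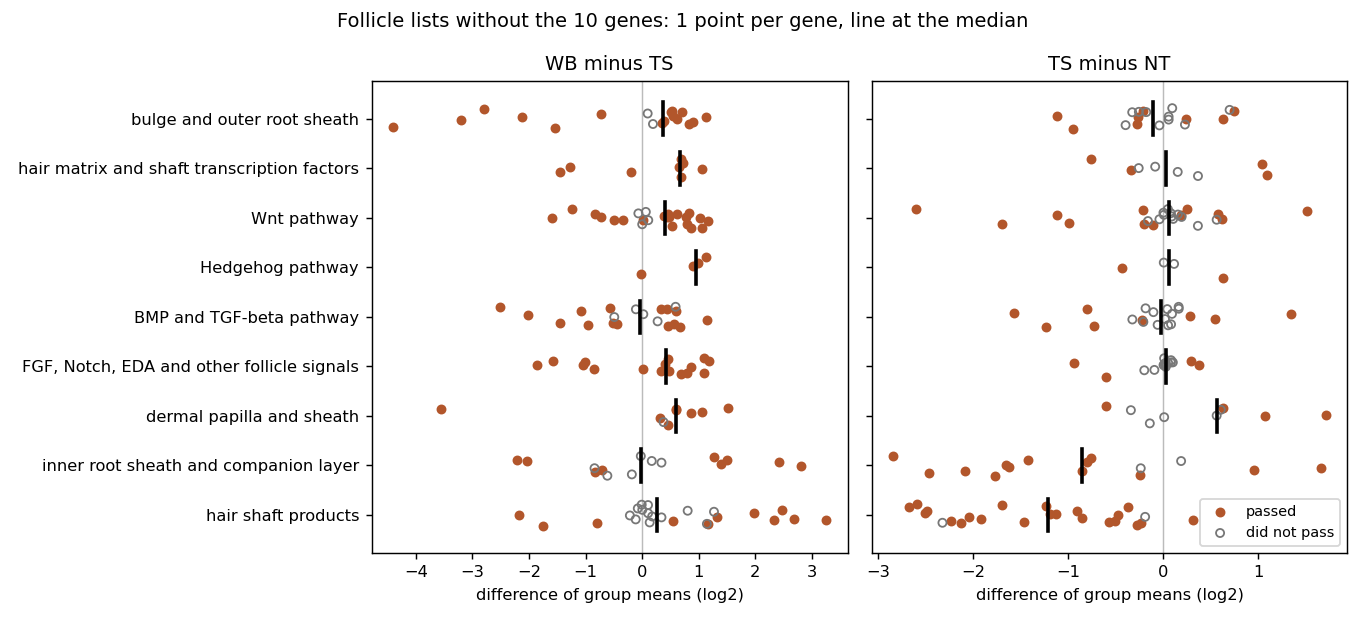
Difference of group means (log2) for the varying genes of 9 follicle lists without the 10 genes, 1 point per gene, with WB minus TS skin on the left and TS minus NT skin on the right. Filled points passed the test, open points did not, and black lines mark medians, which lie lowest for hair shaft products (-1.21) and the inner root sheath (-0.86) in TS against NT skin.

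The genes whose pattern was most like that of each member were found by Pearson's r over the 12 TS and NT arrays, among all varying genes. This describes likeness only, and much of it follows the difference between the groups. For Cd34 they were Plce1 (r = 0.991), Cadm3 (0.982) and Mpdz (0.978), and after the group means were taken out r was 0.886, 0.746 and 0.666. For Lgr5 they were Tnik (0.956), Dnmbp (0.912) and Tmem129 (0.895), with 0.942, 0.852 and 0.825 after the group means were taken out. For Sox9 they were Foxo4 (0.921), Clip1 (0.896) and Lpar1 (0.889), and for Hoxc13 Sspn (0.832), Srpx (0.828) and Fkbp1a (0.826). Over all 18 arrays, in which the WB arrays set most of the spread, the nearest genes were others: Gnas for Cd34, Icam1 for Lgr5, Trim2 for Sox9 and Nrn1 for Hoxc13.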

How the data were processed

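Total RNA of dorsal skin was hybridised to Affymetrix mouse arrays. The authors deposited a table with 1 value for each probe set on each array; how probes were summarised and normalized is not stated in the sources used here. These deposited values (2.93 to 19.04, array medians near 6.9) were read as log2 values, and folds rest on that base. The number of arrays limits the precision. Of 45101 probe sets, 64 control probe sets were left out. Gene symbols came from the platform annotation, which gives 1 symbol to 34945 tested probe sets, several to 932 and none to 9160; probe sets with several symbols were given no name. A gene outside the members was represented by its varying probe set of highest mean.

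All 18 arrays entered 1 limma 3.58.1 fit in R 4.3.3 (eBayes after lmFit, no covariate, two-sided p) with Benjamini-Hochberg adjustment over 45037 probe sets. The 33091 constant probe sets entered the fit and the adjustment too, so every adjusted p depends on them. A call needs adjusted p under 0.05 and a difference of at least 0.01, which leaves the constant probe sets uncalled. Every adjusted p is from this fit unless an exact permutation test (SciPy 1.17.1) is named. When tested on simulated TS and NT arrays of 45037 probe sets, the fit recovered 91 of 100 true changes of 1 log2 and 58 of 100 of 0.5 log2. The simulated noise was normal and independent between probe sets, and 200 probe sets were changed, where the real TS against NT fit called 4551. Adjusted p depends on the share changed, so these rates do not carry over to the real comparisons. The members and gene lists were chosen with earlier results of these data known. From each follicle list up to 4 called genes of smallest p per comparison, and from each marker list up to 3, could be named; Krt15 in TS against NT, Krt14, Id1, Id4, the constant genes Gli1, Msx1, Gata3 and Hr, and the values of named genes in a second comparison were chosen after their values were seen. The p-values measure the spread between the arrays of a group. Alternatives were quantile normalization, median centring, bright or varying probe sets only, array weights, an intensity trend, a replicate block, 2-group fits, a 1.5-fold minimum and each array left out.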

Additional observations from a re-analysis of the deposited data

Results flagged for a closer look

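Both results below were singled out because the highest of 6 arrays lay far from the other 5, with a gap to the nearest that takes up most of the group's range. Chance alone does this in about 1 of 20 groups. Sox9 was highest on array NT 1, at 8.76, where the next NT array had 8.62, a gap of 0.688 of the range. Without NT 1 the Sox9 difference of TS from NT skin was still not called. The Gapdh 3' minus 5' difference was highest on array WB 2, at 4.41, where the next WB array had 3.71, a gap of 0.721 of the range. By the actin difference, 5.54, WB 2 lay within the range of the other WB arrays, 5.27 to 5.96. The Cd34 value of WB 2, 8.94, was the highest of the WB arrays and lay below every TS array. Whether Cd34 followed either measure within WB skin was not tested.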

How the results depend on the processing

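Cd34 kept its direction and its call in all 3 comparisons under every alternative run, with a difference of TS from NT skin of -1.56 to -1.40 when 1 array was left out. After quantile normalization the member probe sets called numbered 2 in TS against NT, 18 in WB against TS and 17 in WB against NT skin, and after median centring 17 in WB against TS and 18 in WB against NT skin, because both scalings shift the constant probe sets. Over all probe sets, 39795 were called in WB against TS and 41328 in WB against NT skin after quantile normalization, and 43993 in each after median centring. Array weights gave 2 members in TS against NT skin, adding Hoxc13 (-0.04, adjusted p = 0.0312), and so did leaving out NT 1 (adjusted p = 0.0417). A 1.5-fold minimum left 1417 probe sets in TS against NT skin, 1 member in WB against TS and 2 in WB against NT skin. Hoxc13 turned to 0.0298 in WB against TS (adjusted p = 0.0485) and 0.0098 in WB against NT skin (adjusted p = 0.493) after quantile normalization, and lost its call in WB against TS skin after median centring (-0.02, adjusted p = 0.241). Boc, a hedgehog co-receptor at -0.02 in WB against TS skin, turned to 0.088 and 0.016 under these scalings. The Gapdh difference of TS from NT skin, 0.145, was 0.118 after quantile normalization (exact permutation p = 0.0866). With 1 array left out, probe sets called ranged from 4031 to 4605, 10482 to 10566 and 10539 to 10611 in TS against NT, WB against TS and WB against NT skin, and members from 1 to 2, 4 to 4 and 4 to 4. Deviations of same-numbered arrays correlated weakly or not at all. The r was -0.13 to 0.127 between TS and NT, -0.268 to 0.048 between WB and TS and -0.051 to 0.138 between WB and NT. Of 6 arrays, 2, 0 and 4 were most like the array of their own number in these comparisons. The labels name no pairs, so the numbers were not taken as pairs. A replicate block gave 4171, 10510 and 10592 probe sets and 1, 4 and 4 members. No measure of background is in the table, so small differences of dim probe sets are uncertain.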
